A study of Homo sapiens with 4 samples.

Results

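Open chromatin was examined at 10 imprinted genes that belong to domains with CTCF control: H19, IGF2, MEG3, DLK1, PEG3, MEST, PLAGL1, PEG10, SNRPN and GNAS. Each locus was the gene body of GENCODE release 44 with 20 kb on each side. Overlapping peaks of the 4 ATAC-seq lists (1 bp or more) were joined into merged regions, and those that overlapped a locus were its members. These were 64 of 164301 merged regions, and they lay at 9 of the 10 loci, since no list held a peak at H19. ATAC-seq inserts sequencing adapters into accessible DNA with the Tn5 transposase, so that a peak marks open chromatin. The cells were pancreatic progenitors derived from MEL1, an established human embryonic stem cell line, which the methods of the study give as MEL1 INS GFP/W, a line with GFP at the insulin gene. They were cultured for 7 days in EF6 medium (DMEM with B27, EGF, bFGF and the TGF-β receptor inhibitor 616452) with either DMSO, the solvent control, or 1 μM I-BET151, an inhibitor of the BET bromodomain proteins. There were 2 libraries per group, each from 50000 cells. No source used here says that they came from separate cultures, so the spread between libraries may be technical.

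Imprinted genes are expressed from only the maternal or only the paternal copy, according to DNA methylation laid down in the germ line at a control region. At the H19 and IGF2 domain the zinc finger protein CTCF binds the unmethylated maternal control region and insulates IGF2 from enhancers that lie beyond H19, whereas methylation of the paternal copy prevents this binding. Open chromatin at such regions is therefore often present on a single allele, and the peak lists do not separate the alleles.

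The sequences that bear on CTCF control were read from hg38. The search used the core of the CTCF consensus, CCNNNNGGNGGC, which has 7 fixed letters, on both strands, and a stricter form with 8 fixed letters. The forms overlap, but neither contains the other. Capitals mark a core match. H19 (ENSG00000130600, chr11:1995166-2004552, minus strand) held a repeated 20-letter site with the core on the minus strand, shown because it is the best known CTCF control element among these loci and no list had a peak there. The repeats are numbered in the direction of transcription. Sites 1 (chr11:2003017-2003036), 2 (chr11:2002612-2002631), 3 (chr11:2002211-2002230) and 5 (chr11:1999966-1999985) were identical. Site 4 (chr11:2000778-2000797) differed from them at 1 position, and site 6 (chr11:1999043-1999062) at 3 positions.
H19 sites 1, 2, 3 and 5: gtggCCGCGCGGCGGCagtg
H19 site 4: gtggCCGCGTGGCGGCagtg
H19 site 6: atggCCGAGAGGCGGCagtg

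The other sequences are windows of 201 bp around the summit of a member region, plus strand, with and without the core. PLAGL1 3 (chr6:143942224-143942424) is shown because it held 2 core matches and was the only member with the stricter form in its window. SNRPN 6 (chr15:24883252-24883452) was called only with DMSO. MEG3 4 (chr14:100844501-100844701), SNRPN 12 (chr15:24956239-24956439) and GNAS 5 (chr20:58890908-58891108) were called in all 4 lists. SNRPN 5 (chr15:24862920-24863120) and IGF2 8 (chr11:2152021-2152221) were called only with I-BET151, and are shown because neither window holds the core. Regions are numbered along the chromosome within each locus.
PLAGL1 3: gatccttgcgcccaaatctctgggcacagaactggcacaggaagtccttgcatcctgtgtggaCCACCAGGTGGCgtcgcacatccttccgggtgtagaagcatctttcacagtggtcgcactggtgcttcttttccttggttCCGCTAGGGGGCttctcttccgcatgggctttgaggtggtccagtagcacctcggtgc
SNRPN 6: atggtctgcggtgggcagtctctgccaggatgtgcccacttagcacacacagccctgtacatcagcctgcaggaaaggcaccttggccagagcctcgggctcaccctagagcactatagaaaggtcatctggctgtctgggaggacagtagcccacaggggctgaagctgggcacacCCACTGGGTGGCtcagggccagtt
MEG3 4: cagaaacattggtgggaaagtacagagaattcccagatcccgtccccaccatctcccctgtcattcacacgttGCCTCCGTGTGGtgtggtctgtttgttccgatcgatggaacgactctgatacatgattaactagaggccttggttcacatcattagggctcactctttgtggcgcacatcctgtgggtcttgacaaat
SNRPN 12: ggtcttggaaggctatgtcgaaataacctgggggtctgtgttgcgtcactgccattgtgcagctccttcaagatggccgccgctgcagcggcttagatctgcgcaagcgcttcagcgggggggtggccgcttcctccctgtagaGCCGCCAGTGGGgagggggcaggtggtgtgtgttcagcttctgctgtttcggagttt
GNAS 5: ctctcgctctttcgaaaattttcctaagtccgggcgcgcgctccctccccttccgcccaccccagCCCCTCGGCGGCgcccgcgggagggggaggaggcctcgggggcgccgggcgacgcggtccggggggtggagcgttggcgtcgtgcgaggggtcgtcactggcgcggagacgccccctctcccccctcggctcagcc
SNRPN 5: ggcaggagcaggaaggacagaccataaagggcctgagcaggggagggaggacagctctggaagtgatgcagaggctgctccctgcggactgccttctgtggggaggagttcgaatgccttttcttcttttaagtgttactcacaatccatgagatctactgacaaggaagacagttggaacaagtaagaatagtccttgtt
IGF2 8: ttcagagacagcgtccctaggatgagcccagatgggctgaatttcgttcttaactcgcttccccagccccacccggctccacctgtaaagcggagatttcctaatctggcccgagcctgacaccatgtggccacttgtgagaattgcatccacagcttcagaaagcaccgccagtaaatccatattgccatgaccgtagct

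The libraries differed in depth and in the number of peaks. The DMSO lists held 82568 and 38295 peaks and the I-BET151 lists 84995 and 111324 peaks (replicates 1 and 2). The background values behind the lists correspond to 38.7 and 36.6 M reads for DMSO and to 12.5 and 16.0 M reads for I-BET151. The median fold enrichment over the local background was 3.88 and 4.08 in the DMSO lists and 5.56 and 6.03 in the I-BET151 lists, so a fold enrichment is read beside its percentile within its own list. Peaks were at least 200 bp long in the replicate 1 lists, 233 bp in DMSO replicate 2 and 256 bp in I-BET151 replicate 2. Replicates 1 and 2 thus differed in the calling as well. Among 9 progenitor markers, 8 and 7 had a peak within 1 kb of a start site with DMSO and 9 in both I-BET151 lists, and PDX1 was the marker without one in either DMSO list. NEUROG3, INS, GCG, POU5F1, NANOG and PTPRC had none in any list. COL1A1 and TWIST1, markers of mesenchyme, had one in all 4 lists, as did AFP and APOA1 of the liver list. ALB, the third liver marker, had one in each I-BET151 list but lacked one with DMSO. Of the endocrine list CHGA had one in DMSO replicate 1 and both I-BET151 lists, NEUROD1 in I-BET151 replicate 1 alone and SST in I-BET151 replicate 2 alone. The part of other cell types in the results was not tested. Peak lists cannot tell fewer open cells from less open chromatin per cell.

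With all deposited peaks and libraries the imprinted loci gained more regions than they lost with I-BET151, and the gained share was near that over the genome. Regions found in each I-BET151 list and absent from both DMSO lists were termed gained, and those with the reverse pattern lost. Of the 64 members 11 were gained (17.2%), against 17.0% of all merged regions. The gained regions were at SNRPN (4), IGF2 (2), GNAS (2), MEG3, DLK1 and MEST. Of the members 3 were lost (4.69%), 1 each at IGF2, PLAGL1 and SNRPN, against 2.37% of all regions. A further 13 members (20.3%) were called in all 4 lists, against 15.6% of all regions, at PLAGL1 (3), GNAS (3), IGF2, MEG3 and SNRPN (2 each) and PEG10. Counts over regions have no replicate error and were not tested. Between the replicate 1 libraries 31 members differed in call, 16 in favour of I-BET151 and 15 in favour of DMSO (51.6% of them in I-BET151, against 51.2% of all regions that differed). Between the replicate 2 libraries these numbers were 28 and 4 (87.5%, against 92.7%). The excess of I-BET151 calls was thus in the replicate 2 lists, in which DMSO had the fewest peaks and I-BET151 the most. Without I-BET151 replicate 1 there were 26 gained (against 43.7% of all regions) and 4 lost among 59 members. The direction turned without DMSO replicate 2, with 11 gained and 15 lost of 64 members. All regions turned as well in that setting (18.3% gained and 20.9% lost). With equal numbers of peaks per list the members also turned, with 1 gained and 2 lost of 26. All regions did not turn there (9.19% gained and 5.85% lost).

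Start sites and distal regions were gained at similar shares. Of the 22 members within 1 kb of an annotated transcription start site 4 were gained (18.2%, against 13.9% of all such regions), none was lost (against 1.86%) and 10 were called in all 4 lists (45.5%, against 42.7%). Of the 42 members farther away 7 were gained (16.7%, against 17.6% of all such regions), 3 were lost (7.14%, against 2.48%) and 3 were called in all 4 lists (7.14%, against 9.82%). A single list held 32 members (50.0%, against 51.8% of all regions): 15 in I-BET151 replicate 2, 12 in DMSO replicate 1, 5 in I-BET151 replicate 1 and 0 in DMSO replicate 2. All 17 members in DMSO replicate 2 (100%, against 87.9% over all regions) were also among the 33 of DMSO replicate 1 (51.5% of these, against 42.1%). The I-BET151 lists shared 26 members, which were 76.5% of the 34 in replicate 1 (against 78.6%) and 63.4% of the 41 in replicate 2 (against 57.1%).

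**Figure D1:**
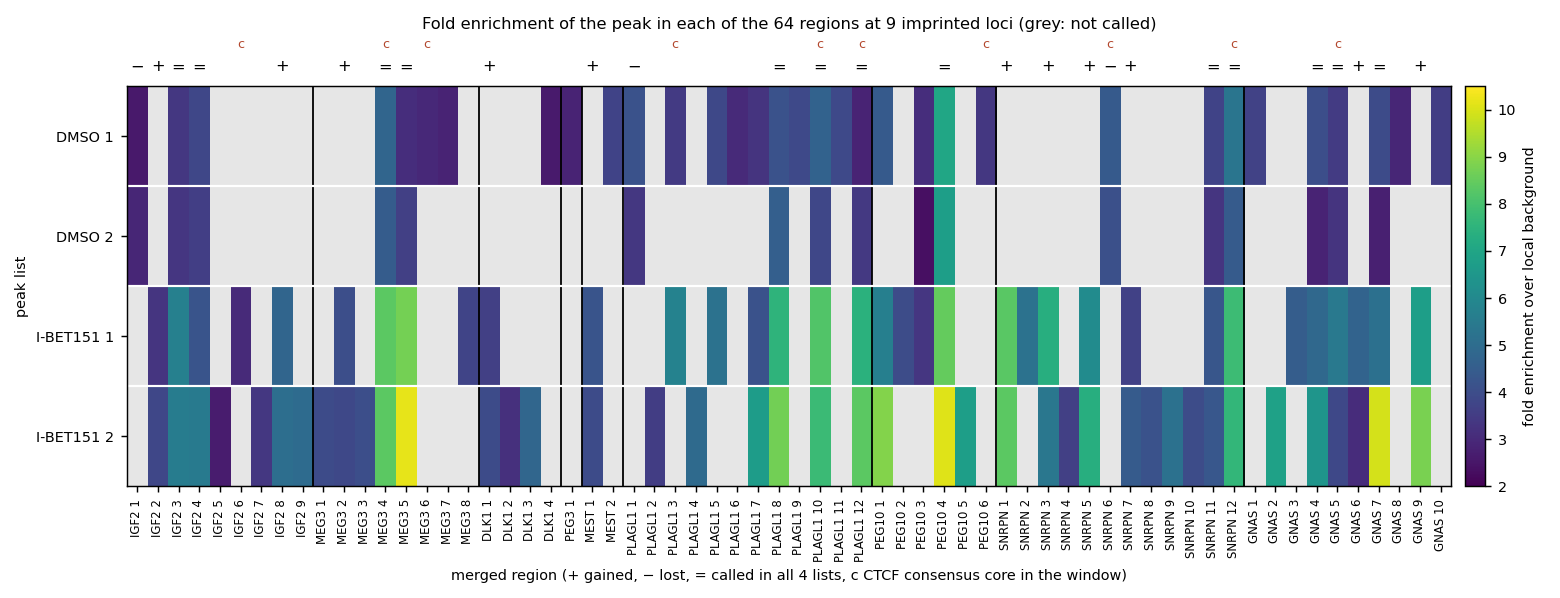
Fold enrichment over the local background (colour) of each of the 64 member regions (columns, in order along each locus) in each peak list (rows). Grey marks a region that was not called. Signs above the columns mark the 11 gained (+), 3 lost (−) and 13 shared (=) regions, and c marks the 10 regions with a CTCF core in the window. The shared regions are brightest in the I-BET151 lists, whose median fold enrichment was also higher over all peaks.

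**Figure D2:**
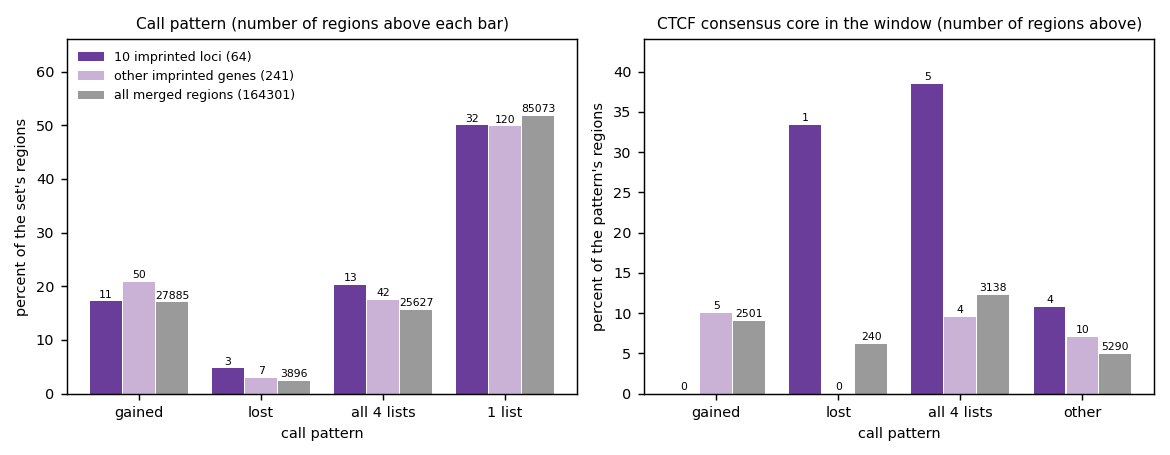
Left, the percentage of regions that were gained, lost, called in all 4 lists or called in 1 list, for the 10 imprinted loci, 26 other imprinted genes and all merged regions. Right, the percentage of the regions of each pattern whose window holds the CTCF core. Numbers above the bars count regions. The gained shares lie between 17.0% and 20.7%, and no gained member held the core in its window.

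The locus score, which is the mean within-list percentile over the merged regions of a locus (0 where a list lacked the region), was higher with I-BET151 at 7 of 9 loci and lower at 2. Its mean over the 9 loci was 17.3 and 6.79 in the DMSO libraries and 17.1 and 20.5 in the I-BET151 libraries. DMSO replicate 1 thus lay within the range of the I-BET151 libraries. The means were 12.1 and 18.8, a difference of 6.76 (two-sided exact permutation test over the 4 libraries, p = 0.667). Between the replicate 1 libraries the difference was −0.199, and between the replicate 2 libraries it was 13.7. Without DMSO replicate 1 the difference was 17.6 over 8 loci, and without DMSO replicate 2 it was 1.49. With equal numbers of peaks per list it was −1.31 over the 7 loci that kept a region, and with −log10 p of at least 10 it was 25.7 over 6 loci. Over the 35845 protein-coding and lncRNA genes that had a region the median of the same difference was 10.7, and 80.6% were higher with I-BET151. Both I-BET151 scores were above both DMSO scores at 5 of the 9 loci (IGF2, MEG3, DLK1, SNRPN and GNAS), against 48.9% of all gene loci. No listed locus had both below, against 3.52%. The smallest p that 2 against 2 libraries allow is 0.333, so no single locus could pass a threshold of 0.05.

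**Figure D3:**
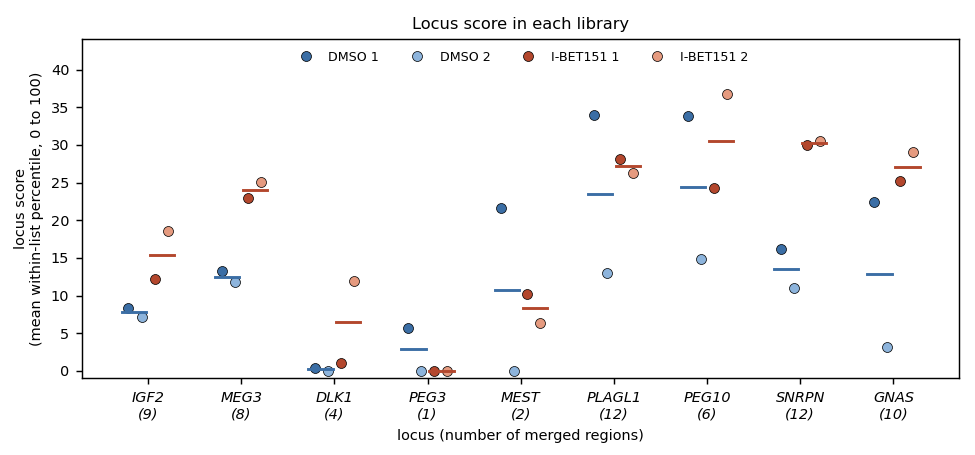
Locus score (mean within-list percentile of the regions of a locus, 0 to 100) in each library for the 9 loci with a region, with the number of regions under each name. Points are libraries and bars are the means of 2 libraries. At MEG3 and SNRPN the 2 groups are well apart, whereas at PLAGL1 and PEG10 the DMSO libraries lie far from each other.

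In the test on all 4 libraries without a replicate block no member called in all 4 lists moved in rank past the threshold. The percentiles were turned into normal scores and compared with limma over all 25627 shared regions, with Benjamini-Hochberg adjustment. Of the 13 shared members 0 passed an adjusted p of 0.05 and 4 had an unadjusted p under 0.05. Over all shared regions 3.41% moved up and 1.96% moved down at the adjusted threshold, and 24.9% had an unadjusted p under 0.05. The estimated differences were positive for 7 members and negative for 6. The lowest adjusted p among them was 0.0571 (limma), for MEG3 5. Leaving out I-BET151 replicate 2 left I-BET151 replicate 1 alone in its group. The rank differences were then 1.43 at MEG3 5 and 1.37 at PLAGL1 12, against 1.40 and 1.23 with all libraries.

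Shared members stood lower in their lists than shared regions in general. Their median percentile was 53.5 and 32.4 in the DMSO lists and 73.4 and 69.1 in the I-BET151 lists, whereas all shared regions had medians of 80.8, 64.1, 80.1 and 84.3 in the same order. The pileup (reads stacked at the summit) was recovered from fold enrichment and p-value. Per M reads of the library, it was higher with I-BET151 at each of the 13 shared members, by 1.52 to 2.35 on the log2 scale with a median of 1.87. The median over all shared regions was 1.9, close to that of the members. On this scale all 13 members passed the limma test, as did most shared regions (24625 up and 14 down of 25627). After centring on the median of each library 0 members did, beside 184 regions up and 1225 down.

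**Figure D4:**
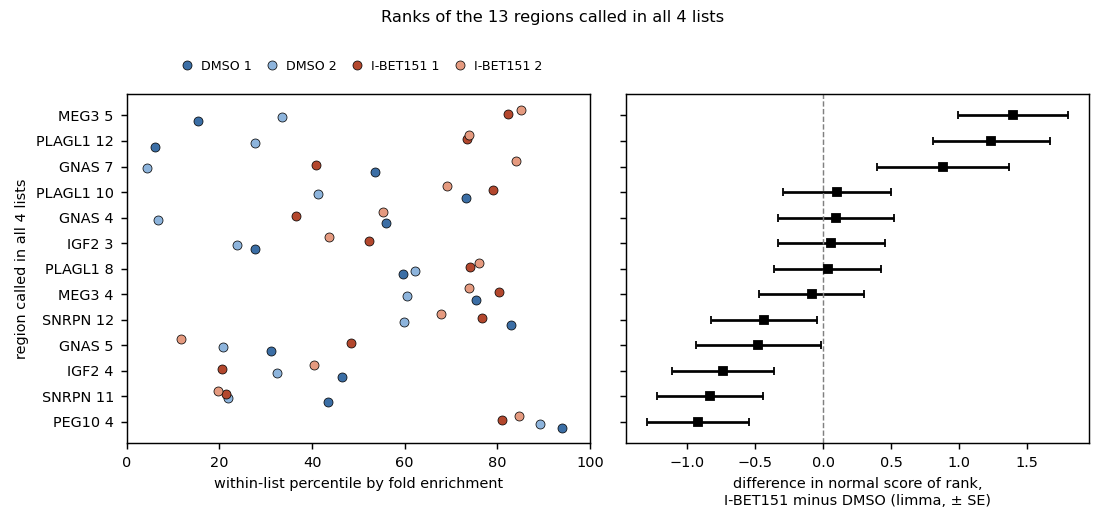
Left, within-list percentile by fold enrichment of the 13 members called in all 4 lists, 1 point per library. Right, the difference in normal score of rank, I-BET151 minus DMSO, with its standard error from limma. MEG3 5 and PLAGL1 12 lie farthest to the right, and no difference passed the adjusted threshold.

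H19, a maternally expressed long non-coding RNA, lay in a stretch without peaks. Between chr11:1944419 and chr11:2073000, over 129 kb, no list held a peak. Of the 164277 gaps between neighbouring merged regions 0.818% were at least as long (median gap 9.35 kb), a share that counts gaps and not genes. The start sites of LINC01219, MRPL23 and MRPL23-AS1 were in the same gap. Counted by gene, 7.85% of all genes had no region within 20 kb. The H19 locus was nonetheless dense in CTCF cores, with 28 matches or 56.7 per 100 kb, against 7.34 per 100 kb over the genome. The neighbouring IGF2 locus had 49.1 per 100 kb, and the stricter form had 0 matches at the H19 locus. The 6 repeated sites spanned 3994 bp. They lay in the gene body of the release, outside annotated exons, and 1168 to 5142 bp before the start of the nearest shorter H19 transcripts. The nearest regions on either side were 54.6 and 70.0 kb away. A missing call says only that no peak passed the threshold of a list at its depth.

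IGF2 (ENSG00000167244, chr11:2129112-2158391, minus strand), the paternally expressed fetal growth factor of the same domain, had 9 regions, or 13.0 per 100 kb. Its locus score was 8.39 and 7.19 with DMSO and 12.2 and 18.5 with I-BET151. Both I-BET151 libraries were above both DMSO libraries, by 7.56 in the mean. Without I-BET151 replicate 1 the difference was 12.1, and with equal numbers of peaks per list it was −10.8. The strongest gained region was IGF2 8 (chr11:2151558-2152348), in an intron, 2542 bp before a start site of the gene. It was absent from both DMSO lists and had a fold enrichment of 4.76 and 5.06 in the I-BET151 lists, at the percentiles 34.8 and 33.5. IGF2 2, the other gained region, was downstream of the gene, with a fold enrichment of 3.31 and 3.79. This call was weak, at the percentiles 1.46 and 11.3.

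Regions at the IGF2 start sites were found only with I-BET151, each in 1 list. IGF2 6 (chr11:2139085-2139412), at the canonical start site and the only IGF2 region with a CTCF core, had a fold enrichment of 3.02 in I-BET151 replicate 1. IGF2 5 and IGF2 7, near alternative start sites, had 2.66 and 3.37 in I-BET151 replicate 2. These calls were weak, since the percentiles were 0.295, 0.319 and 5.35. The lost region IGF2 1 (chr11:2108928-2109276), downstream of the gene at the edge of the locus, was weak as well, with a fold enrichment of 2.58 and 2.91 in the DMSO lists.

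The regions of IGF2 called in every list were both downstream of the gene. IGF2 3 had a fold enrichment of 3.38 and 3.35 with DMSO and 5.70 and 5.58 with I-BET151, and a rank difference of 0.06 ± 0.394 (SE, limma adjusted p = 0.948). IGF2 4 (chr11:2127841-2129243), which reaches into the end of the gene, had a fold enrichment of 3.81 and 3.57 with DMSO and 4.21 and 5.47 with I-BET151. Its rank difference was −0.74 ± 0.376 (SE, limma adjusted p = 0.235). The percentiles of IGF2 4 were 46.5 and 32.4 with DMSO and 20.6 and 40.4 with I-BET151, so the groups overlapped.

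**Figure D5:**
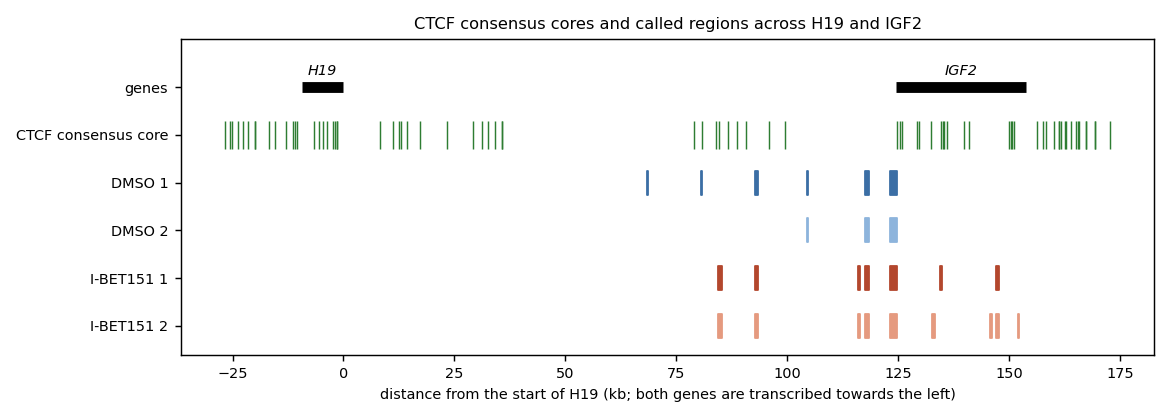
Map of H19 and IGF2, with distance from the start of H19 in kb. Black bars are genes, green ticks are CTCF cores and coloured bars are regions called in each list. No list has a called region at the 28 cores of the H19 locus, and the calls begin on the IGF2 side.

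MEG3 and DLK1 form an imprinted domain on chromosome 14. MEG3 (ENSG00000214548, chr14:100779410-100861031, plus strand) is a maternally expressed long non-coding RNA with 8 regions at its locus. The locus score was 13.3 and 11.7 with DMSO and 23.0 and 25.0 with I-BET151, a difference of 11.5 without overlap. MEG3 5 (chr14:100857265-100858134), which overlaps an exon 66 bp before an alternative start site, had the lowest adjusted p of the shared members. Its fold enrichment was 3.12 and 3.60 with DMSO and 8.73 and 10.2 with I-BET151, and its percentiles were 15.5, 33.5, 82.3 and 85.1. The groups did not overlap, and the rank difference was 1.40 ± 0.407 (SE, limma adjusted p = 0.0571). The pileups behind these values were 28, 34, 32 and 56 reads, with exact 95% Poisson intervals from 18.6 to 40.5 for the lowest and from 42.3 to 72.7 for the highest, which cover counting error only.

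MEG3 4 (chr14:100844153-100844898), an intronic region 858 bp before another start site, held a CTCF core. Its fold enrichment was 4.76 and 4.46 with DMSO and 8.37 and 8.35 with I-BET151, while the percentiles were 75.4, 60.5, 80.3 and 73.9. The groups of percentiles overlapped, with a rank difference of −0.08 ± 0.387 (SE, limma adjusted p = 0.921). The gained region MEG3 2 (chr14:100815964-100816398), in an intron, had a fold enrichment of 4.04 and 3.85 in the I-BET151 lists, at the percentiles 13.0 and 11.8. MEG3 6 (chr14:100866944-100867324), downstream and with a CTCF core, was called only in DMSO replicate 1, with a fold enrichment of 2.96. The other MEG3 members were each in 1 list, 2 in I-BET151 replicate 2, 1 in I-BET151 replicate 1 and 1 in DMSO replicate 1.

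DLK1 (ENSG00000185559, chr14:100725705-100738224, plus strand), which encodes a paternally expressed transmembrane protein related to the Notch ligands, had 4 regions, the nearest of them 13932 bp from a start site of the gene. The locus score was 0.445 and 0 with DMSO and 1.01 and 11.9 with I-BET151. The groups did not overlap, but I-BET151 replicate 1 was closer to DMSO than to its own replicate. The difference of 6.24 was 11.7 without I-BET151 replicate 1 and 1.57 without I-BET151 replicate 2. The gained region DLK1 1 (chr14:100710705-100711083), upstream of the gene, had a fold enrichment of 3.60 and 3.94 in the I-BET151 lists, at the percentiles 4.04 and 12.8. The locus held 18 CTCF cores, 34.3 per 100 kb, and none was inside a called region.

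SNRPN (ENSG00000128739, chr15:24823637-24978723, plus strand), a paternally expressed gene for a spliceosomal protein, had a higher locus score with I-BET151 in both libraries. The score was 16.1 and 11.03 with DMSO and 29.9 and 30.5 with I-BET151. The means were 13.6 ± 3.61 and 30.2 ± 0.424 (SD, n = 2), a difference of 16.6, and both I-BET151 libraries were above both DMSO libraries (two-sided exact permutation test, p = 0.333, the smallest that this design allows). With equal numbers of peaks per list the difference was −5.10. The gained regions were upstream of the canonical start site of SNRPN, from 55.3 to 131 kb before it.

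SNRPN 1 (chr15:24823501-24823920), 26 bp before the most distal annotated start site of the gene, had the highest fold enrichment among the gained members in the weaker of its 2 lists. It was absent from both DMSO lists and had a fold enrichment of 8.32 and 8.34 with I-BET151, at the percentiles 79.8 and 73.7, from pileups of 15 and 20 reads. SNRPN 3 (chr15:24856223-24856833), 29 bp before another upstream start site, had 7.34 and 5.37. SNRPN 5 (chr15:24862854-24863237) and SNRPN 7, both intronic, had 6.09 and 7.32, and 3.64 and 4.43.

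The promoter that SNRPN shares with SNURF, which holds the imprinting centre of the Prader-Willi domain, was open in all 4 lists. SNRPN 11 (chr15:24954833-24955482), at the canonical start site, had a fold enrichment of 3.72 and 3.30 with DMSO and 4.27 and 4.32 with I-BET151. Its percentiles were 43.4, 21.8, 21.5 and 19.7, and the rank difference was −0.83 ± 0.387 (SE, limma adjusted p = 0.195). Both I-BET151 percentiles were below both DMSO percentiles, DMSO replicate 2 by a small margin. SNRPN 12 (chr15:24955882-24956980), 1334 bp after a start site in an intron and with a CTCF core, had a fold enrichment of 5.30, 4.43, 7.84 and 7.62 in the same order and a rank difference of −0.44 ± 0.393 (SE, limma adjusted p = 0.517).

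The lost region SNRPN 6 (chr15:24883194-24883514) lay among the gained ones, in an intron 71.6 kb before the canonical start site. Its fold enrichment was 4.40 and 4.09 in the DMSO lists, at the percentiles 67.4 and 50.8, each from a pileup of 16 reads. It was the only lost member with a CTCF core, and its sequence is given above. Of the other SNRPN members, 4 were in I-BET151 replicate 2 alone and 1 in I-BET151 replicate 1 alone.

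GNAS (ENSG00000087460, chr20:58839718-58911192, plus strand) is a complex locus that encodes the stimulatory G protein α subunit and, from upstream promoters, transcripts imprinted in opposite directions. Its locus score was 22.5 and 3.18 with DMSO and 25.2 and 29.0 with I-BET151, a difference of 14.3 without overlap. DMSO replicate 1 was nearer to the I-BET151 libraries than to DMSO replicate 2. Without DMSO replicate 1 the difference was 34.2, and without DMSO replicate 2 it was 4.63. The gained region GNAS 9 (chr20:58921856-58922521), downstream of the gene, had a fold enrichment of 6.76 and 8.78 in the I-BET151 lists, at the percentiles 67.0 and 77.0. GNAS 6 (chr20:58892190-58892768), 212 bp after a start site in an intron, was also gained, with 4.71 and 3.07. Its percentiles were 34.0 and 1.94, so it was weak in I-BET151 replicate 2.

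Promoter regions of GNAS were called in every list. GNAS 4 (chr20:58888610-58889381), 20 bp after the start site of an upstream transcript, had a fold enrichment of 4.05 and 2.85 with DMSO and 4.88 and 6.45 with I-BET151. GNAS 5 (chr20:58890581-58891494), which is 413 bp before the canonical start site and holds a CTCF core, had 3.47 and 3.26 with DMSO and 5.44 and 3.84 with I-BET151. GNAS 7 (chr20:58907769-58908248), at an exon 26 bp after an internal start site, had 3.96 and 2.76 with DMSO and 5.13 and 9.97 with I-BET151. In percentiles the groups of all of these overlapped. The rank differences were 0.09 ± 0.428, −0.48 ± 0.460 and 0.88 ± 0.486 (SE, limma adjusted p = 0.921, 0.550 and 0.272). GNAS 1 (chr20:58840612-58840892), near upstream start sites of GNAS and of its antisense transcript GNAS-AS1, was called only in DMSO replicate 1, with a fold enrichment of 3.69.

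PLAGL1 (ENSG00000118495, chr6:143940300-144064599, minus strand), a paternally expressed zinc finger transcription factor, had 12 regions and none gained. Its locus score was 34.0 and 13.0 with DMSO and 28.2 and 26.3 with I-BET151, so the I-BET151 libraries lay between the DMSO libraries. Its difference of 3.71 was 18.9 without DMSO replicate 1 and −6.79 without DMSO replicate 2. PLAGL1 10 (chr6:144007830-144008764), at the start sites of PLAGL1 and of the imprinted transcript HYMAI and with a CTCF core, had a fold enrichment of 4.66 and 3.81 with DMSO and 8.19 and 7.81 with I-BET151. The percentiles were 73.3, 41.3, 79.0 and 69.1, which overlapped, with a rank difference of 0.10 ± 0.398 (SE, limma adjusted p = 0.904).

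PLAGL1 12 (chr6:144063777-144064784), at the most upstream start site, also held a CTCF core. Its fold enrichment was 2.85 and 3.43 with DMSO and 7.43 and 8.35 with I-BET151, and its percentiles were 6.06, 27.7, 73.4 and 73.9. The groups did not overlap, and the rank difference of 1.23 ± 0.430 (SE) had an adjusted p of 0.0961 (limma). The third shared region, PLAGL1 8 in an intron, had a rank difference of 0.03 ± 0.393 (SE, limma adjusted p = 0.971). PLAGL1 7 (chr6:143964556-143965039), at a downstream start site, was in 3 lists, with a fold enrichment of 3.28 in DMSO replicate 1 and of 4.13 and 6.69 in the I-BET151 lists.

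PLAGL1 3 (chr6:143942042-143942395) overlaps an exon and carries the 2 CTCF cores shown above. It was called in both replicate 1 lists and in neither replicate 2 list, with a fold enrichment of 3.45 with DMSO and 5.77 with I-BET151. The lost region PLAGL1 1 (chr6:143935041-143935551), downstream of the gene, had a fold enrichment of 4.14 and 3.37 in the DMSO lists. Of the 12 members, 10 were called in DMSO replicate 1 and 4 in DMSO replicate 2, against 6 in each I-BET151 list.

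PEG10 (ENSG00000242265, chr7:94656325-94669695, plus strand), a paternally expressed gene derived from a retrotransposon, held the most enriched member of the DMSO lists. PEG10 4 (chr7:94657673-94658766), in an intron 1917 bp after a start site, had a fold enrichment of 7.04 and 6.77 with DMSO and 8.49 and 10.1 with I-BET151. Its percentiles were 94.0, 89.3, 81.0 and 84.6. Both I-BET151 percentiles were below both DMSO percentiles, with a rank difference of −0.92 ± 0.375 (SE, limma adjusted p = 0.144). The pileup was 172 reads in I-BET151 replicate 2, the highest of any member, against 57, 58 and 70 reads in the other lists.

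The promoter that PEG10 shares with SGCE was open but weak. PEG10 3 (chr7:94656058-94656444) had a fold enrichment of 3.11 and 2.34 with DMSO and of 3.36 in I-BET151 replicate 1, and was not called in I-BET151 replicate 2. PEG10 6 (chr7:94688024-94688223), downstream and with a CTCF core, was called only in DMSO replicate 1, with a fold enrichment of 3.36. The locus score was 33.8 and 14.9 with DMSO and 24.3 and 36.8 with I-BET151, which overlapped, and no PEG10 region was gained or lost. Its difference of 6.20 was 18.8 without DMSO replicate 1, −3.23 without DMSO replicate 2, 14.97 without I-BET151 replicate 1 and −0.0843 without I-BET151 replicate 2. It was −9.63 with equal numbers of peaks per list and −7.82 in the gene body alone.

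MEST and PEG3, both paternally expressed, had few regions. MEST (ENSG00000106484, chr7:130486171-130506465, plus strand) encodes a protein of the hydrolase fold. A region at its upstream start sites was gained, MEST 1 (chr7:130486192-130487266), whose summit lay 31 bp before one of them. It had a fold enrichment of 4.20 and 3.93 in the I-BET151 lists, at the percentiles 20.5 and 12.7. MEST 2 was in DMSO replicate 1 alone, with a fold enrichment of 3.72. The locus score was 21.6 and 0 with DMSO and 10.2 and 6.35 with I-BET151, and the difference of −2.49 was 16.6 without DMSO replicate 1, −13.3 without DMSO replicate 2, −4.44 without I-BET151 replicate 1 and −0.549 without I-BET151 replicate 2. It was 1.26 with 50 kb on each side. PEG3 (ENSG00000198300, chr19:56810077-56840728, minus strand), a zinc finger gene, had 1 region, PEG3 1 (chr19:56838107-56838530), in an intron 424 bp before a start site. It was called in DMSO replicate 1 alone, with a fold enrichment of 2.83 at the percentile 5.69.

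The window of 201 bp around the summit held the core in 10 of 64 members (15.6%), against 6.80% of all merged regions. Among shared members 5 of 13 had it (38.5%, against 12.2% of all shared regions): MEG3 4, PLAGL1 10, PLAGL1 12, SNRPN 12 and GNAS 5. Among gained members 0 of 11 had it, which by a floor of 3 counts allows a share of up to 27.3% (counting error only, with regions taken as independent), against 8.97% of all gained regions. Among lost members 1 of 3 had it, against 6.16% of all lost regions, and among the remaining 37 members 4 had it (10.8%, against 4.95%). Without I-BET151 replicate 2 the core was in 1 of 16 gained members (against 7.86% of all gained regions). When the whole region was searched it was in 1 of 11 gained members (against 14.4%). That search found it in 6 of 13 shared members, against 8187 of all 25627 shared regions. In the window it was in 1 of 10 gained members when a peak had to cover at least 50% of the region (against 9.94%). With a stricter threshold of −log10 p of at least 10 it was in 3 of 8 (against 12.5%).

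The members were also richer in G and C, a property that bears on a consensus made of these letters. Their windows had a median GC content of 54.2%, against 48.3% over all regions, and shared members had 68.2%. Of the 13 shared members 10 lay within 1 kb of a start site, against 48.1% of all shared regions. Over the genome 13.3% of regions within 1 kb of a start site had the core in the window, against 5.42% of those farther away. The parts of base composition and of start sites in the share of cores were not tested. The stricter form was in the window of 1 of 64 members, against 1.89% of all regions and 4.23% of all gained regions. Among shared members 0 of 13 had the stricter form there, against 2.40% of all shared regions. Of the 184 cores at the 10 loci 19 were inside a called region, 6 of them at PLAGL1, 4 at GNAS, 3 at MEG3 and 0 at H19, DLK1 and MEST. A match is a sequence description and no measure of CTCF binding.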

How the data were processed

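The authors mapped the reads to hg38 (Bowtie2, v2.2.5), filtered out mitochondrial reads and duplicates, and used MACS2 (v2.1.2) on each library without a control. The deposited lists hold a score (not used), fold enrichment at the summit (a ratio), −log10 p, −log10 q (that is, p-values and q-values on a log scale), and the summit offset. They reach a q-value of 0.05, and −log10 p of at least 5, the value of the methods, was an alternative. Only chromosomes 1 to 22, X and Y entered, with peaks merged at 1 bp overlap. Pileups were solved from fold and p-value to within 0.01 on the −log10 p scale, and read numbers assumed the default genome size of MACS2. Rank tests used R 4.3.3 and its package limma (3.58.1; functions lmFit and eBayes, adjusted p under 0.05). The remaining steps were run in Python (3.11.15) with pandas 2.3.3, scipy 1.17.1 and numpy 2.4.6. Merging, pileup recovery, motif search and limma were tested on simulated data. Coordinates and sequences came from hg38 and GENCODE release 44, whose chromosome names fitted the lists.

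The members and gene lists were chosen with earlier results of these data known. Regions given in full were those within 1 kb of a start site of the listed gene, lost, past the limma threshold, with a CTCF core in the window, or the strongest gained region per gene by the weaker of its 2 fold enrichments. Others named, such as shared regions, were chosen after their values were seen. The letters of the CTCF core were set after the tests were fixed. The replicate numbers came from the labels.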

Additional observations from a re-analysis of the deposited data

How the results depend on the processing

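The alternatives were other thresholds, overlaps, locus widths, ranks and scalings, the leaving out of each library, and a replicate block. Of the values that answer a comparison, 35 stayed in direction and within their margin, 14 moved and 1 reversed. Gained members fell from 11 of 64 to 1 of 26 with equal numbers of peaks per list, and over all regions from 17.0% to 9.19%. At −log10 p of at least 5 they were 8 of 56 (against 18.1% of all regions). When 1 library was left out they ranged from 11 of 64 (against 18.3% of all regions) to 26 of 59 (against 43.7%). Lost members were 0 of 24 at −log10 p of at least 10 (against 0.269% of all regions). They were 2 of 56 at −log10 p of at least 5 (against 1.94%). In the gene body alone they were 1 of 45 and with 50 kb on each side 6 of 91, each against 2.37%. When 1 library was left out they ranged from 3 of 52 (against 4.56%) without DMSO replicate 1 to 15 of 64 (against 20.9%) without DMSO replicate 2. Gained members with the CTCF core were 3 of 8 at −log10 p of at least 10, against 12.5% of all gained regions. They were 1 of 10 when a peak had to cover at least 50% of the region (against 9.94%). In the whole region they were 1 of 11 (against 14.4%), and they were 0 to 1 when 1 library was left out. Members called by limma were 13 of 13 by scaled pileup, where 24625 of 25627 shared regions moved up. The mean difference in locus score reversed to −1.31 with equal numbers of peaks, when IGF2 (−10.8), PEG10 (−9.63) and SNRPN (−5.10) reversed too, it was 25.7 at −log10 p of at least 10, and it was 1.49 to 17.6 when 1 library was left out. PEG10 reversed to −7.82 in the gene body alone and MEST to 1.26 with 50 kb on each side. When 1 library was left out, the difference ranged from −13.3 to 16.6 at MEST, from −6.79 to 18.9 at PLAGL1 and from −3.23 to 18.8 at PEG10, where it was −0.0843 without I-BET151 replicate 2. The cause was not tested.

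The deviations of libraries with the same number were not positively correlated over the 25627 shared regions (correlation −0.14), and the tests were left unpaired. This value covers the shared regions only and cannot exclude a common deviation, since replicates 1 and 2 differed in the calling. With the replicate number as a replicate block limma called 1 of 13 members, MEG3 5 (adjusted p = 0.0472). Over all 25627 shared regions it then called 985 up and 652 down. With the crossed pairing, an alternative chosen after seeing the data, it called 2 members, beside 1985 regions up and 1567 down. The mean difference in locus score under the replicate block was 6.76, with −0.199 and 13.7 in the replicate 1 and 2 pairs. The lowest pileups of called members were 12, 13, 6 and 9 reads in the 4 lists (DMSO, then I-BET151), so that weaker openings could not be seen, and the DMSO libraries were the deeper ones.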

Other observations

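Another 26 imprinted genes, among them CDKN1C, KCNQ1, IGF2R, GRB10, UBE3A and NNAT, were taken with 20 kb on each side, after 6 genes (ZIM2, SGCE, RTL1, MEG8, HYMAI and COPG2) were left out because they overlapped the loci of the report. They had 241 merged regions. Of these 50 were gained (20.7%), 7 were lost (2.90%) and 42 were called in all 4 lists (17.4%). The CTCF core was in the window of 5 of the 50 gained regions (10.0%) and of 4 of the 42 shared regions (9.52%), whereas it was in none of the 11 gained and in 5 of the 13 shared regions of the 10 loci. The difference between the gene groups was not tested.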
